A study of Mus musculus with 12 samples.

Results

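The ADAMTS proteases (a disintegrin and metalloproteinase with thrombospondin motifs) are described here by 10 genes, taken by gene name from the array: Adamts1, Adamts2, Adamts4, Adamts5, Adamts7, Adamts8, Adamts9, Adamts10, Adamts12 and Adamts15. They were 10 of the 34796 gene names carried by non-control probes and had 17 probes, with 1 probe for 3 of the genes and 2 probes for 7. To be tested, a probe had to stand well above background throughout some group of 3 arrays, and 15 of the probes, standing for 9 of the genes, passed. The only probe of Adamts7 and the second probe of Adamts12 were not well above background on any of the 12 arrays.

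RNA was measured in the aorta of C57BL/6J mice at day 3. There were 4 groups of 3 mice, and every mouse had its own array. Per the study's methods, the mice were males of 11 to 14 weeks, and a piece of aorta 10 mm long was taken above the right renal artery, so the RNA is that of the whole wall and a change in the number of cells and one in the RNA of each cell cannot be told apart. The DMSO group had the vehicle dimethylsulfoxide and no challenge. The rapamycin group had rapamycin, an inhibitor of the kinase mTOR, at 2 mg/kg/day in DMSO and no challenge. The BA+DMSO group had the challenge, which was BAPN (beta-aminopropionitrile, a blocker of collagen crosslinking) at 150 mg/kg/day with AngII (angiotensin II) at 1 µg/kg/min from implanted pumps, together with DMSO. The BA+rapamycin group had the same challenge with rapamycin at 2 mg/kg/day in DMSO, so all 4 groups had the vehicle. Dissection in this model starts around day 7, and the day 3 samples come from before it. The labels of the DMSO group name the vehicle, while its sample titles begin with Pre.

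ADAMTS enzymes are secreted zinc metalloproteinases that are made as inactive precursors, cut by proprotein convertases such as furin and then held in the matrix around the cell. ADAMTS1, ADAMTS4, ADAMTS5, ADAMTS8, ADAMTS9 and ADAMTS15 cut proteoglycans of the aggrecan and versican type, which fill the space between the elastic layers of the aortic media. ADAMTS2 removes the amino-terminal propeptide of fibrillar procollagens, ADAMTS7 and ADAMTS12 cut cartilage oligomeric matrix protein (COMP), and ADAMTS10 binds fibrillin. TIMP3 (tissue inhibitor of metalloproteinases 3) is the main natural inhibitor of several of these enzymes.

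Promoter sequences (RefSeq, mouse build GRCm38.p6) were at hand for 4 of the 10 genes, Adamts1, Adamts2, Adamts9 and Adamts12. The 250 bases before the start are shown for 3 of them, 5′ to 3′ on the gene's strand, because Adamts2 and Adamts12 both rose with the challenge and Adamts9 had its lower means on rapamycin. Capitals mark matches to GGGCGG (the GC box) on either strand.
Adamts2, chr11:50601835-50602084, plus strand: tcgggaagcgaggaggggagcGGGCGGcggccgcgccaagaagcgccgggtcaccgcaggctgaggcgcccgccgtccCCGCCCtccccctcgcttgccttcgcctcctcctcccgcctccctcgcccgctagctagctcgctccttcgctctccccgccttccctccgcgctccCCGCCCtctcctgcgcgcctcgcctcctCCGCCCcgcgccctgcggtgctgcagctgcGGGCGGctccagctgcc
Adamts12, chr15:11064523-11064772, plus strand: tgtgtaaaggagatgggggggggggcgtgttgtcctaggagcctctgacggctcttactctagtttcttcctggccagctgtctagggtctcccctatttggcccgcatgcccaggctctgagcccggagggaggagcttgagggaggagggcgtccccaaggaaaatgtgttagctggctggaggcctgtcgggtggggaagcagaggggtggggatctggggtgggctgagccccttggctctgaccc
Adamts9, chr6:92943535-92943784, minus strand: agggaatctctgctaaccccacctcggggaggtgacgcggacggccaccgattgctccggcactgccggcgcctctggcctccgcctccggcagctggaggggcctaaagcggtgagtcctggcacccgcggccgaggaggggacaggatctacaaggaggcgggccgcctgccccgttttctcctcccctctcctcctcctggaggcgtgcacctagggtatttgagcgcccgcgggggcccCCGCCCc
The motifs searched, on both strands, were TGANTCA for the factor AP-1, CACGTG for the E-box, GGGCGG for the GC box, and TATAAA for the TATA box. The only matches in the 3 windows shown were GC boxes, so no match of 1 motif overlapped another there. Adamts2 had 5 GC boxes, Adamts9 had 1 and Adamts12 had none, and none of the 3 had a match to the other motifs. Adamts1 had 3 GC boxes and a TATA box that begins 32 bases before the start. Of all 32851 promoters in the table, 32.7% had a GC box in a window of the same length, 12.4% had a TATA box, 6.75% had an AP-1 motif and 6.02% had an E-box. The share of G and C was 78% in Adamts2, 71.2% in Adamts9, 65.6% in Adamts1 and 63.2% in Adamts12, against a median of 52.4% over all promoters.

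Levels are log2 of the processed signal minus the array's own 75th percentile, so that 0 is a signal equal to that percentile, and a difference of 1 is a doubling of the scaled signal (a fold of 2). A gene is represented by its brighter probe, and levels of different probes are not compared. Differences were tested with limma in 1 fit of all 12 arrays, and a difference was called at a Benjamini-Hochberg adjusted p under 0.05 over all 27801 probes tested. For a single gene, 3 mice against 3 cannot give an exact permutation p below 0.1, so no such test is used for a call. The challenged arrays were dimmer, with 75th percentiles between 74.6 and 246 against 221 to 337 on the unchallenged arrays, and 41.2% to 53.1% of probes were well above background. The BA+DMSO arrays were the least alike. Across probes, replicate 2 correlated at 0.912 and 0.953 with the other BA+DMSO arrays, and the highest correlation in that group was 0.961. Within each other group correlations were 0.974 or more. The 75th percentile was 78.1 on BA+DMSO replicate 2 and 246 on replicate 3, and it was 74.6 on BA+rapamycin replicate 2. All 3 DMSO arrays and rapamycin replicate 1 lay on slide 1, and the other 8 arrays lay on slide 2.

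**Figure D1:**
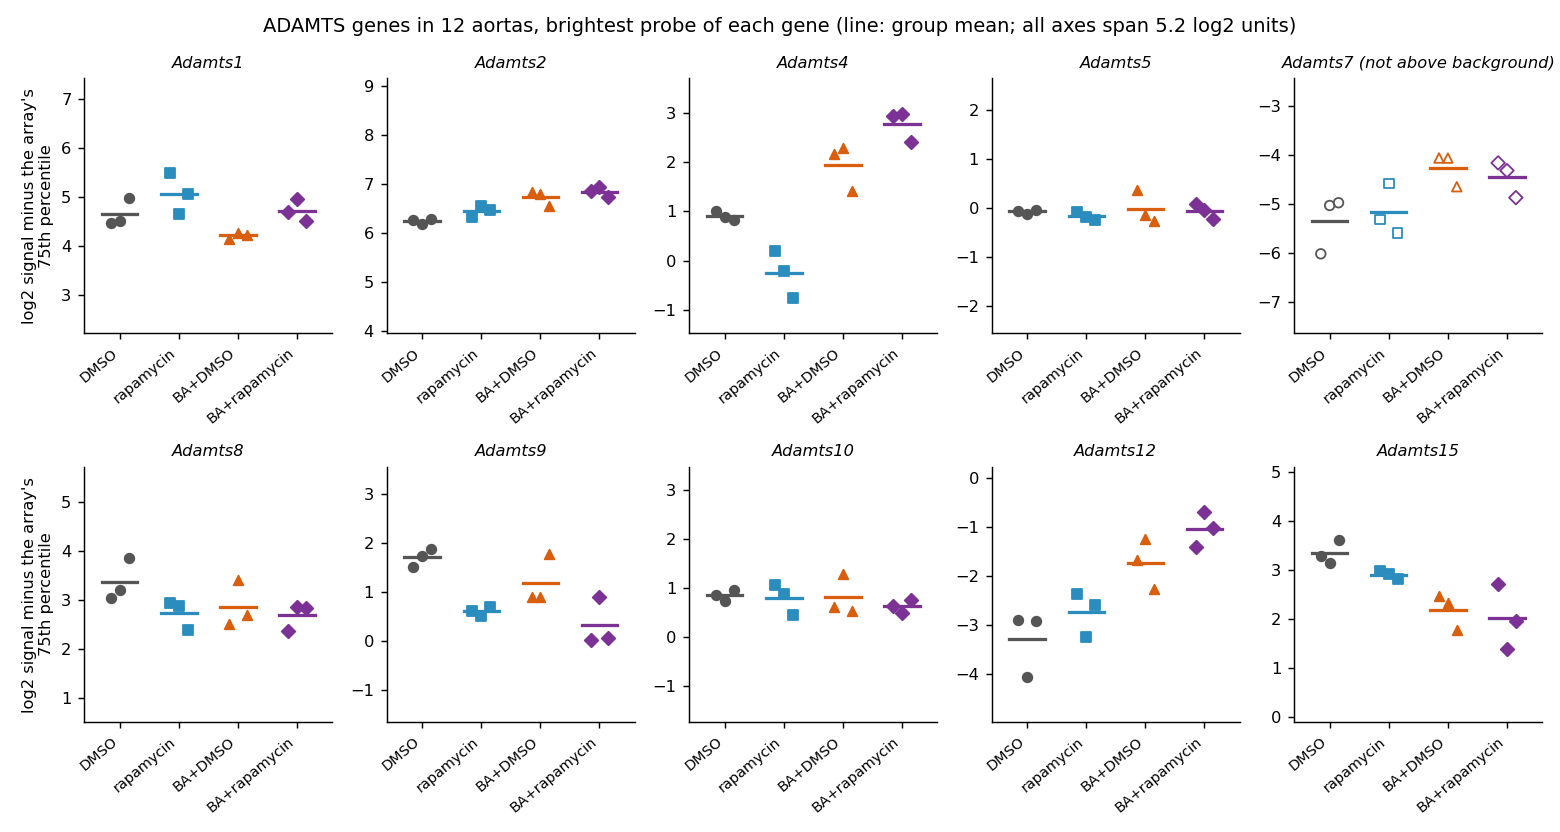
Levels of the 10 ADAMTS genes on the 12 arrays (y axis, log2 signal minus the array's 75th percentile; x axis, treatment group; points are single mice, lines are means of 3, each y axis has its own offset and the same span; open points mark Adamts7, not well above background on any array). Adamts4 takes 4 separate levels, lowest in the rapamycin group and highest in the BA+rapamycin group, while the 4 group means of Adamts5 lie between -0.17 and -0.03.

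The first question was how the challenge changed these genes. Against the DMSO group, 4 of the 9 genes tested were called in the BA+DMSO group. Adamts12, Adamts4 and Adamts2 rose, and Adamts15 fell. Over all probes, 20.5% were called in this comparison, 9.65% higher and 10.8% lower. The median difference of the 9 genes was -0.04 on the log2 scale, against a median of -0.04 over all probes, with 4 of the genes above 0 and 5 below. In mice on rapamycin, the challenge (BA+rapamycin against the rapamycin group) gave 3 calls among the 9 genes, with Adamts4 and Adamts12 higher and Adamts15 lower. The share called over all probes was 41.7%, with 18.9% higher and 22.9% lower, against 33.3% of the ADAMTS genes tested, and with 9 genes nothing is read from that gap.

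Adamts4 encodes ADAMTS4, also called aggrecanase-1. Its level was 1.00, 0.90 and 0.83 in the 3 DMSO aortas and 2.18, 2.28 and 1.41 in the 3 BA+DMSO aortas. The challenge raised it by 1.05 on the log2 scale (SE 0.29, 2.07-fold, adjusted p = 0.0289), and the 2 groups did not overlap. In the rapamycin group it was 0.20, -0.21 and -0.76, and in the BA+rapamycin group 2.94, 2.99 and 2.41. All 3 BA+rapamycin aortas lay above all 9 others. The difference between these 2 groups was 3.04 (SE 0.29, 8.21-fold, adjusted p = 0.000126), the largest among the ADAMTS genes in any comparison between 2 groups. The brighter probe lies on chromosome 1 at 173190709 to 173190768 (mm9, as the array files give it) and the second at 173189952 to 173190011. The second probe had a difference of 2.95 in mice on rapamycin (SE 0.45, adjusted p = 0.00111). In mice on DMSO the second probe gave 0.63 (SE 0.45, adjusted p = 0.343), with overlapping groups. It was well above background on 2 of the 3 BA+DMSO arrays.

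Adamts15 encodes another enzyme that cuts versican and aggrecan. Its level was 3.29, 3.16 and 3.62 in the DMSO group and 2.47, 2.34 and 1.79 in the BA+DMSO group. With the challenge it fell by 1.16 on the log2 scale (SE 0.31, 2.23-fold lower, adjusted p = 0.0237), and no BA+DMSO aorta reached the lowest DMSO aorta. On rapamycin it was 2.99, 2.92 and 2.82 without the challenge and 2.72, 1.39 and 1.96 with it. This difference was -0.88 (SE 0.31, adjusted p = 0.039), again with no overlap. Its probe lies on chromosome 9 (30707033 to 30707092 in mm9).

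The other proteoglycan-cutting members were not called in either challenge comparison by their brighter probes. Adamts1, which encodes an aggrecan- and versican-cutting enzyme of blood vessels, ran from 4.46 to 4.98 in the DMSO group and from 4.14 to 4.28 in the BA+DMSO group. The 2 groups did not overlap, but the difference of -0.44 (95% confidence interval -0.95 to 0.07) had an adjusted p of 0.205. Adamts5, which encodes aggrecanase-2, differed by 0.05 (-0.36 to 0.45), and its levels stayed between -0.28 and 0.35 over the 12 arrays. Adamts8 differed by -0.50 (-1.15 to 0.14) and Adamts9 by -0.52 (-1.16 to 0.12). Levels of both overlapped between the DMSO and BA+DMSO groups.

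Adamts2 encodes the procollagen N-proteinase. Its level was 6.27, 6.17 and 6.29 in the DMSO group and 6.83, 6.80 and 6.54 in the BA+DMSO group. The rise of 0.48 on the log2 scale (SE 0.15, 1.39-fold) was the smallest of the called changes and had an adjusted p of 0.0454. This rise was 0.28 with quantile normalization (adjusted p = 0.196), 0.27 in the deposited values (adjusted p = 0.205) and 0.20 with normexp background correction (adjusted p = 0.281). In mice on rapamycin the Adamts2 level was 6.33, 6.55 and 6.46 without the challenge and 6.86, 6.93 and 6.73 with it, a difference of 0.39 (SE 0.15, adjusted p = 0.0567) that was not called. The challenged aortas lay above the unchallenged ones in both comparisons.

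Adamts12 encodes a COMP-cutting enzyme. Its level was -2.88, -4.06 and -2.91 in the DMSO group, where the probe was well above background on 2 of 3 arrays, and -1.67, -1.24 and -2.25 in the BA+DMSO group. The difference was 1.56 (SE 0.38, 2.96-fold, adjusted p = 0.0166), and the groups did not overlap. Without DMSO replicate 2, the array at -4.06, it was 1.17 (adjusted p = 0.0698), and with normexp background correction it was 0.85. On rapamycin it was -2.36, -3.24 and -2.58 without the challenge and -1.40, -0.68 and -1.02 with it, a rise of 1.69 (SE 0.38, 3.23-fold, adjusted p = 0.00654). Adamts7, its closest relative in the list, ran from -6.01 to -4.06 over the 12 arrays, not well above background on any, and no difference is given for it. Adamts10 differed by -0.04 with the challenge (95% confidence interval -0.55 to 0.47), and its levels in the BA+DMSO group, 0.62, 1.28 and 0.53, lay on both sides of those of the DMSO group, 0.74 to 0.96.

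**Figure D2:**
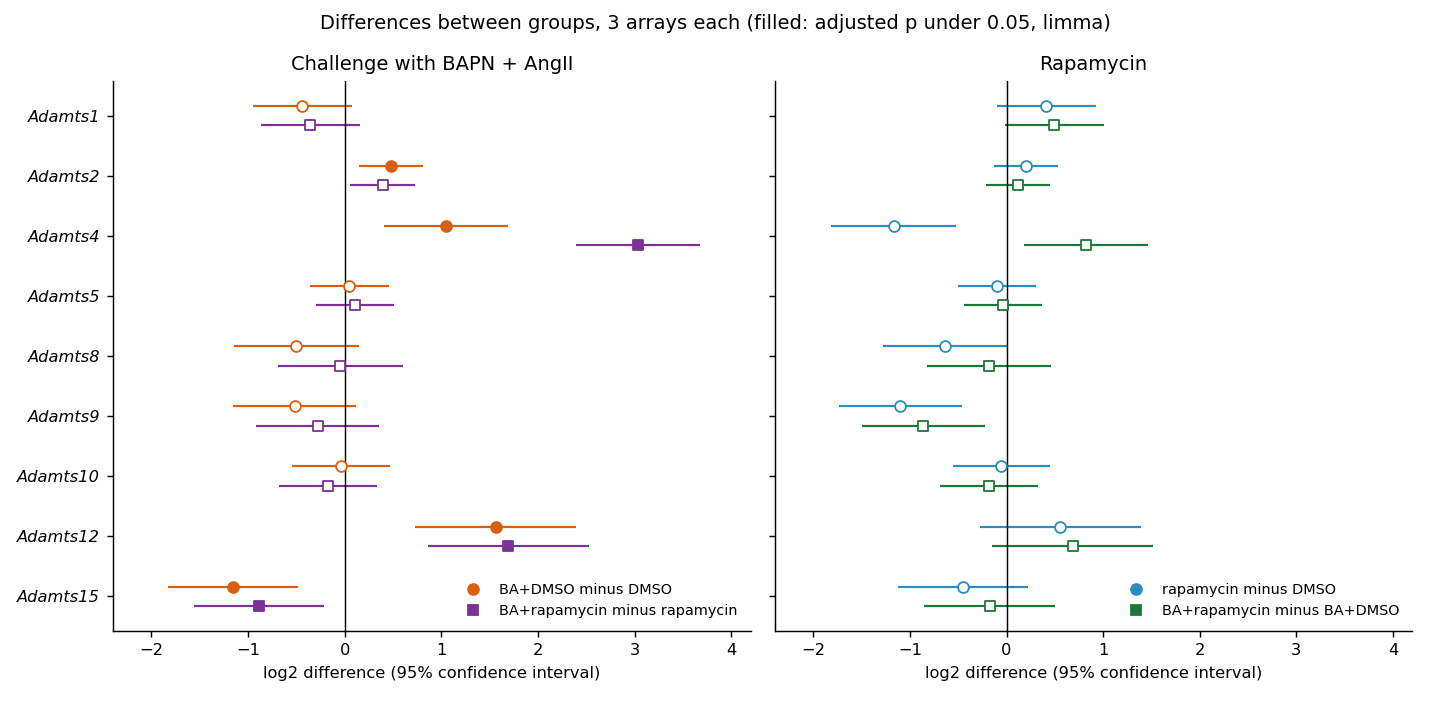
Log2 differences between groups with 95% confidence intervals for the 9 ADAMTS genes tested (left, challenge in mice on DMSO and on rapamycin; right, rapamycin in unchallenged and in challenged mice; filled points were called by limma). The Adamts4 point for the challenge on rapamycin, 3.04, lies far to the right of the others, and in the right panel no point is filled.

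Of the 9 genes tested, 6 had a second tested probe, and the 2 probes of a gene did not always move alike. In the array's annotation the brighter Adamts4 probe and the dimmer probes of Adamts9 and Adamts10 carry no RefSeq entry. The other ADAMTS probes of the list do. The dimmer probe of Adamts10 was called higher with the challenge, by 1.02 (SE 0.33, adjusted p = 0.048), where the brighter one gave -0.04. For Adamts8 the dimmer probe gave 1.27 (adjusted p = 0.258) in mice on DMSO and was called in mice on rapamycin at 2.25 (SE 0.76, adjusted p = 0.0359), where the brighter one gave -0.05. Its levels on the BA+DMSO arrays were -0.61, 1.47 and -2.44, the highest of them on the dim BA+DMSO replicate 2. The dimmer probe of Adamts5 gave 0.82 (adjusted p = 0.177) and that of Adamts9, well above background on 1 of the 3 BA+DMSO arrays, gave -1.30 (adjusted p = 0.121). The second Adamts2 probe gave 0.37 (adjusted p = 0.493) in mice on DMSO and -0.33 (adjusted p = 0.472) in mice on rapamycin. The calls of the dimmer Adamts10 and Adamts8 probes were fragile: that of Adamts10 was lost without BA+DMSO replicate 1 or 2 or any DMSO array, and that of Adamts8 without any rapamycin array or BA+rapamycin replicate 2 or 3. Of these 6 genes, Adamts4 was the only one with both probes called in 1 comparison, the challenge on rapamycin.

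**Figure D3:**
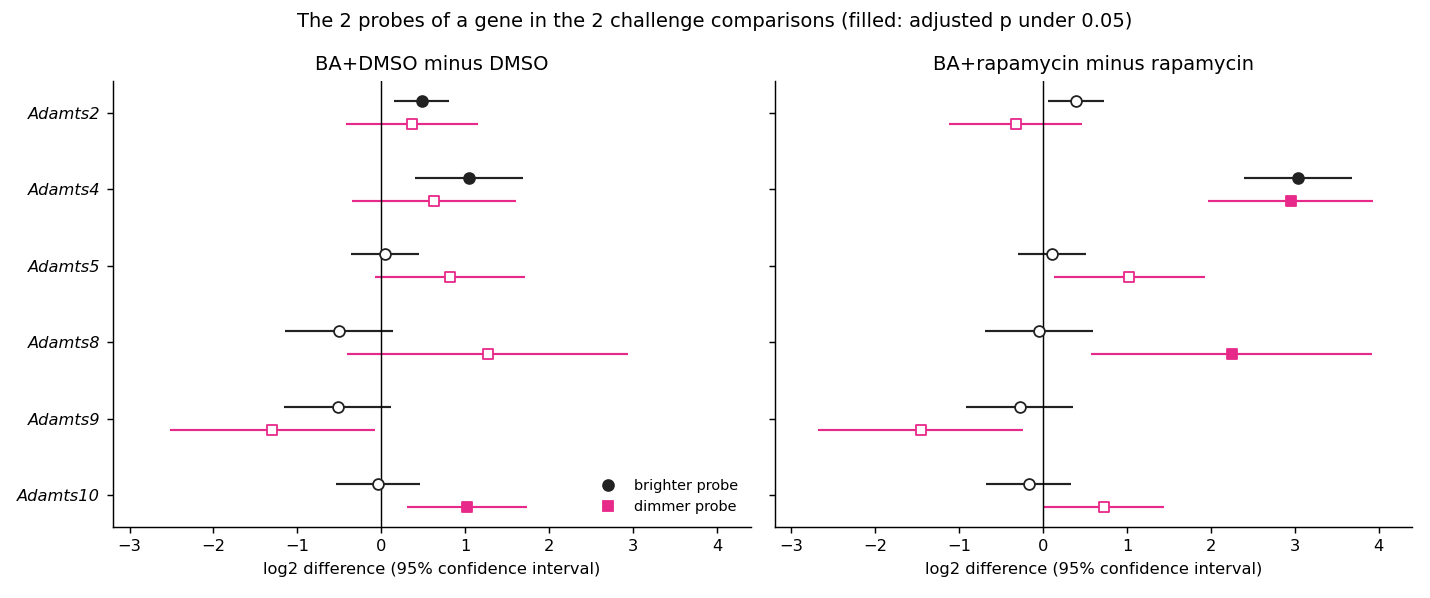
Log2 differences with 95% confidence intervals for the 6 genes with 2 tested probes in the 2 challenge comparisons (circles, brighter probe; squares, dimmer probe; filled, called). The 2 probes of Adamts4 lie at 3.04 and 2.95 on rapamycin, while those of Adamts8 lie at -0.05 and 2.25.

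The calls in BA+DMSO against DMSO depended on the arrays and on the fit. Without DMSO replicate 1, 2 or 3 the number of called ADAMTS genes was 1, 0 and 1, and without BA+DMSO replicate 1 it was 1. No direction of a called gene turned in any of these. With slide as a fixed block, where only the rapamycin group bridges the slides, none of the 4 was called, at 2.11 for Adamts12, 1.73 for Adamts4, 0.30 for Adamts2 and -1.03 for Adamts15. With the dates in the sample titles as a random block 2 were called, and with the array's brightness as a covariate only Adamts8 was called, at -0.99. In the brightness fit Adamts4 was 0.52 (adjusted p = 0.218), Adamts12 0.99 (adjusted p = 0.13) and Adamts2 0.34 (adjusted p = 0.135). Adamts15 was -1.28 there (adjusted p = 0.0541), so its call was lost but not its size. The parts of slide, date, brightness and challenge in these differences cannot be told apart. The challenge on rapamycin could be read within slide 2, from 3 BA+rapamycin and 2 rapamycin arrays. There the difference was 3.26 for Adamts4, 1.88 for Adamts12, -0.84 for Adamts15 and 0.33 for Adamts2. Adamts4 was called in mice on rapamycin under all 28 alternatives, between 2.11 and 3.27. These are not 28 separate checks. For any gene, leaving out a DMSO or BA+DMSO array cannot move the difference in this comparison. Slide as a fixed block gave the same values here as leaving out rapamycin replicate 1. Adamts12 in mice on rapamycin was not called with brightness as a covariate, at 0.69 (adjusted p = 0.505), or with title date as a fixed block, at 1.29 (adjusted p = 0.271). Adamts15 in mice on rapamycin lost its call in 15 of 28 alternatives, with an adjusted p of 0.0986 with slide as a fixed block.

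**Figure D4:**
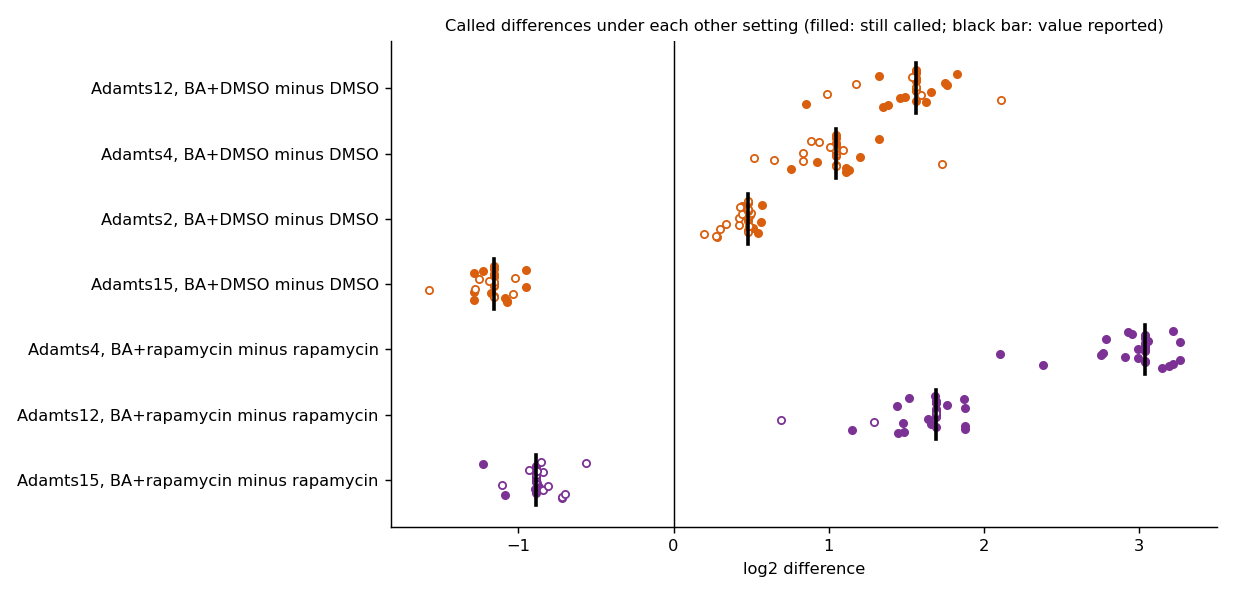
Log2 differences of the called ADAMTS genes under each other setting of the analysis (x axis; each point is 1 setting, filled if still called, black bar the value reported). All points of a gene lie on the same side of 0, and all points of Adamts4 in mice on rapamycin are filled.

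The second question was what rapamycin changed. No ADAMTS gene was called in the rapamycin group against the DMSO group, where 0.0036% of all probes were called, and none in BA+rapamycin against BA+DMSO, where 0.281% were called. At an unadjusted p under 0.05, limma gave 2 of the 9 genes in each of these comparisons, Adamts4 and Adamts9 both times, against 4.27% of all probes in unchallenged mice and 20.1% in challenged mice. These comparisons share their arrays with the challenge comparisons, and the values are set side by side rather than counted as separate support. Against the DMSO arrays, all on slide 1, 2 of the 3 rapamycin arrays lay on slide 2, so slide and rapamycin are partly mixed.

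Adamts9, whose product cuts versican and aggrecan, had a lower mean on rapamycin both with and without the challenge, and neither difference was called. Its level was 1.52, 1.73 and 1.88 in the DMSO group and 0.61, 0.52 and 0.70 in the rapamycin group. These groups did not overlap, and the difference was -1.10 (95% confidence interval -1.74 to -0.46, unadjusted p = 0.00294, adjusted p = 0.65). With the challenge it was 0.90, 0.90 and 1.79 on DMSO and 0.02, 0.91 and 0.06 on rapamycin, a difference of -0.86 (-1.50 to -0.22, unadjusted p = 0.0126, adjusted p = 0.17) with overlapping groups. Within slide 1 the difference between 1 rapamycin array and the 3 DMSO arrays was -1.10, and among the 4 unchallenged arrays of 1 title date it was -1.19. On that date the DMSO arrays lay on slide 1 and the rapamycin arrays on slide 2. Slide and rapamycin cannot be told apart there. The 2 rapamycin arrays of slide 2 differed from the 1 of slide 1 by 0.002. The dimmer Adamts9 probe gave -0.14 in unchallenged mice. In the BA+DMSO group 1 of 3 arrays measured it well above background and in the BA+rapamycin group none did, so it gives no size for the difference in challenged mice. Without BA+DMSO replicate 2, the brighter probe was called in challenged mice at -1.01 (adjusted p = 0.0299). Leaving out any other single array gave no such call, and it was called in 2 of 28 alternatives.

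Adamts4 had a lower mean on rapamycin without the challenge and a higher one with it, and neither difference was called. The difference was -1.17 (95% confidence interval -1.81 to -0.53, unadjusted p = 0.00209, adjusted p = 0.611) in unchallenged mice and 0.82 (0.18 to 1.46, unadjusted p = 0.017, adjusted p = 0.186) in challenged mice. In both, the brighter probe's groups did not overlap. The second probe gave -1.08 and 1.24, the latter with overlapping groups, and neither was called. The size of 1.24 rests partly on a BA+DMSO array where this probe was not well above background. Within slide 1 the unchallenged difference was -0.71 (1 rapamycin array against 3 DMSO arrays), and among the unchallenged arrays of 1 title date it was -1.35. On that date too, slide and rapamycin cannot be told apart. The 2 rapamycin arrays of slide 2 differed from the 1 of slide 1 by -0.68. Without BA+DMSO replicate 2, the difference in challenged mice was called at 0.98 (adjusted p = 0.0322). This was the only one of the 28 alternatives that gave the call.

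The difference between these differences, the interaction of challenge and rapamycin, was 1.99 for Adamts4 (SE 0.41, 95% confidence interval 1.08 to 2.90, unadjusted p = 0.000539). Its adjusted p was 0.494, and it was not called. The second probe gave 2.32 (SE 0.63, unadjusted p = 0.0036, adjusted p = 0.563), a size that rests partly on the same BA+DMSO array. By limma 0% of all probes were called in the interaction and 6.12% had an unadjusted p under 0.05, as did 1 of the 9 ADAMTS genes. Without BA+DMSO replicate 2 the Adamts4 interaction was called at 2.15 (adjusted p = 0.0323). Leaving out any other single array gave no call, and it was called in 2 of 27 alternatives.

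No other gene of the list had an unadjusted p under 0.05 with rapamycin. Adamts8 was 2.94, 2.87 and 2.39 in the rapamycin group, each below the lowest DMSO value of 3.04, a difference of -0.64 (95% confidence interval -1.28 to 0.01, unadjusted p = 0.0527). Adamts1 differed by 0.41 on rapamycin without the challenge (-0.10 to 0.92) and by 0.50 with it (-0.01 to 1.01, unadjusted p = 0.0559). In the challenged mice its 3 values on rapamycin, 4.51 to 4.95, lay above all 3 on DMSO. Without and with the challenge, Adamts12 differed by 0.55 and 0.69, Adamts2 by 0.20 and 0.12, and Adamts15 differed by -0.45 and -0.18, with intervals that all included 0. Adamts5 and Adamts10 differed by between -0.18 and -0.04 in the 2 comparisons.

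For each gene called in BA+DMSO against DMSO, the genes whose values over the 12 arrays ran most like it were sought among 10774 genes well above background on every array, by the root-mean-square difference after centring each gene. Nearest to Adamts4 were Spon2 (0.39) and Lrrc8b (0.45), and nearest to Adamts15 were Greb1l (0.27) and Rgs2 (0.27). Nearest to Adamts12 were Rad18 (0.29) and Baz1a (0.31), and nearest to Adamts2, whose range is small, were Cpsf4 (0.10) and Gabarap (0.11). Within the list, Adamts4 and Adamts12 lay 0.77 apart on this measure and Adamts4 and Adamts15 lay 1.63 apart, the widest pair.

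The rest of the ADAMTS family was mostly out of reach of the array. Of 9 other ADAMTS genes, Adamts3, Adamts13, Adamts16, Adamts18, Adamts19 and Adamts20 were not well above background on any array. Adamts6, Adamts14 and Adamts17 were tested and none was called with the challenge. Adamts17 was called higher with the challenge in mice on rapamycin, by 0.70 (SE 0.25, adjusted p = 0.0463), and is named because it was the single call. Of the 7 ADAMTS-like genes, which lack the protease domain, 1 was called higher and 1 lower with the challenge, a total near the 20.5% of all probes called. Adamtsl2, whose product binds fibrillin and the latent form of TGFβ, rose by 1.61 (SE 0.34, 3.06-fold, adjusted p = 0.00881) in mice on DMSO. In mice on rapamycin it differed by 0.23 (adjusted p = 0.594), from a mean of 1.56 without the challenge to 1.79 with it, and none of the 7 genes was called higher and 1 was called lower, where 41.7% of all probes were called. Adamtsl5 fell by 0.72 (adjusted p = 0.0375) on its brighter probe and was called higher, by 1.22 (adjusted p = 0.0033), on its dimmer one, so no direction is given for the gene.

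Among 10 tested genes for the inhibition, activation and clearance of these enzymes, 1 was called higher and 1 lower with the challenge, with a median difference of -0.06. That total is near the 20.5% of all probes called. Timp1, a broad metalloproteinase inhibitor, was 3.11, 2.61 and 2.50 in the DMSO group and 7.47, 5.95 and 6.94 in the BA+DMSO group. It rose by 4.05 on the log2 scale (SE 0.34, 16.6-fold, adjusted p = 0.000117). Timp4, another member of that family, was 0.64, 0.32 and 0.82 in the DMSO group and -3.31, -0.90 and -1.19 in the BA+DMSO group, where 2 of 3 arrays were well above background. It fell by 2.39 (SE 0.61, adjusted p = 0.021), and without BA+DMSO replicate 1 the difference was -1.64 (adjusted p = 0.0591). Timp4 passed the filter only through the unchallenged groups, where it is highest, so its call is no support for the list. Timp3, the inhibitor tied most closely to the ADAMTS enzymes, differed by 0.28 (adjusted p = 0.236), and its levels stayed between 6.81 and 7.39 over the 12 arrays. Furin, the convertase named above, differed by -0.13 (adjusted p = 0.59), and Lrp1, an endocytic receptor that clears several ADAMTS enzymes, by -0.08 (adjusted p = 0.794). A2m was not well above background. Timp3, Furin and Lrp1 were named after their values were seen. In mice on rapamycin Timp1 rose by 4.55 and Timp4 fell by 2.51, the latter with 2 of 3 BA+rapamycin arrays well above background. Pcsk6, a convertase, was also lower there, by 1.89 (adjusted p = 0.000628), and is named here after its values were seen.

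Among the 9 tested proteoglycan substrates and their link proteins, none was called higher and 2 were called lower with the challenge, with a median of 0.07. That total is near the 20.5% of all probes called. Hapln1, a link protein that ties proteoglycans to hyaluronan, was -3.41, -4.38 and -2.36 in the BA+DMSO group, well above background on 1 of the 3, against -1.81 to -1.42 in the DMSO group. The difference of -1.75 (SE 0.48, adjusted p = 0.0274) has a size that rests partly on the 2 arrays not well above background. Hapln1 passed the filter only through the unchallenged groups, where it is highest, so its call is no support for the list. Vcan, which encodes versican, was 2.82, 3.26 and 3.06 in the DMSO group and 2.25, 1.71 and 2.61 in the BA+DMSO group by its brighter probe, a fall of 0.86 (SE 0.26, adjusted p = 0.0385). Its dimmer probe was called higher, by 0.69 (adjusted p = 0.037), so no direction is given for the gene. Acan, the gene of aggrecan, differed by 1.08 (adjusted p = 0.283), with 3.16 on BA+DMSO replicate 3 against 0.99 and 0.32 on the other 2 arrays, and is named after its values were seen. Bcan was not well above background on all arrays of any group. With the challenge on rapamycin, where 22.9% of all probes were called lower, 3 of the 9 were, among them Fmod (fibromodulin) at -2.51 (adjusted p = 0.00145), named after its values were seen.

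Among the 13 tested procollagens and other substrates, 6 were called higher and none lower with the challenge, with a median difference of 0.70, where 9.65% of all probes were called higher and 10.8% lower. Thbs1, which encodes the matrix protein thrombospondin-1, rose by 2.11 (SE 0.33, 4.32-fold, adjusted p = 0.00222), and Nid2, a basement membrane protein, by 1.43 (adjusted p = 0.00707). Col1a1 rose by 0.99 (adjusted p = 0.0243) and Col3a1 by 0.85 (adjusted p = 0.035). Both are fibrillar procollagens of the kind that ADAMTS2 trims. Their levels in the BA+DMSO group were 8.26, 8.43 and 7.37 for Col1a1, against 6.97 to 7.14 in the DMSO group. On rapamycin the challenge raised Col1a1 by 1.57 and Col3a1 by 1.48, and the count was 6 higher and 1 lower, where 18.9% of all probes were called higher and 22.9% lower. The one called lower was Comp, the substrate of ADAMTS7 and ADAMTS12, at -0.97 (adjusted p = 0.00316) against -0.11 (adjusted p = 0.718) in mice on DMSO, and it is named after its values were seen. Col2a1, Fbn2 and Tfpi2 did not pass the filter.

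**Figure D5:**
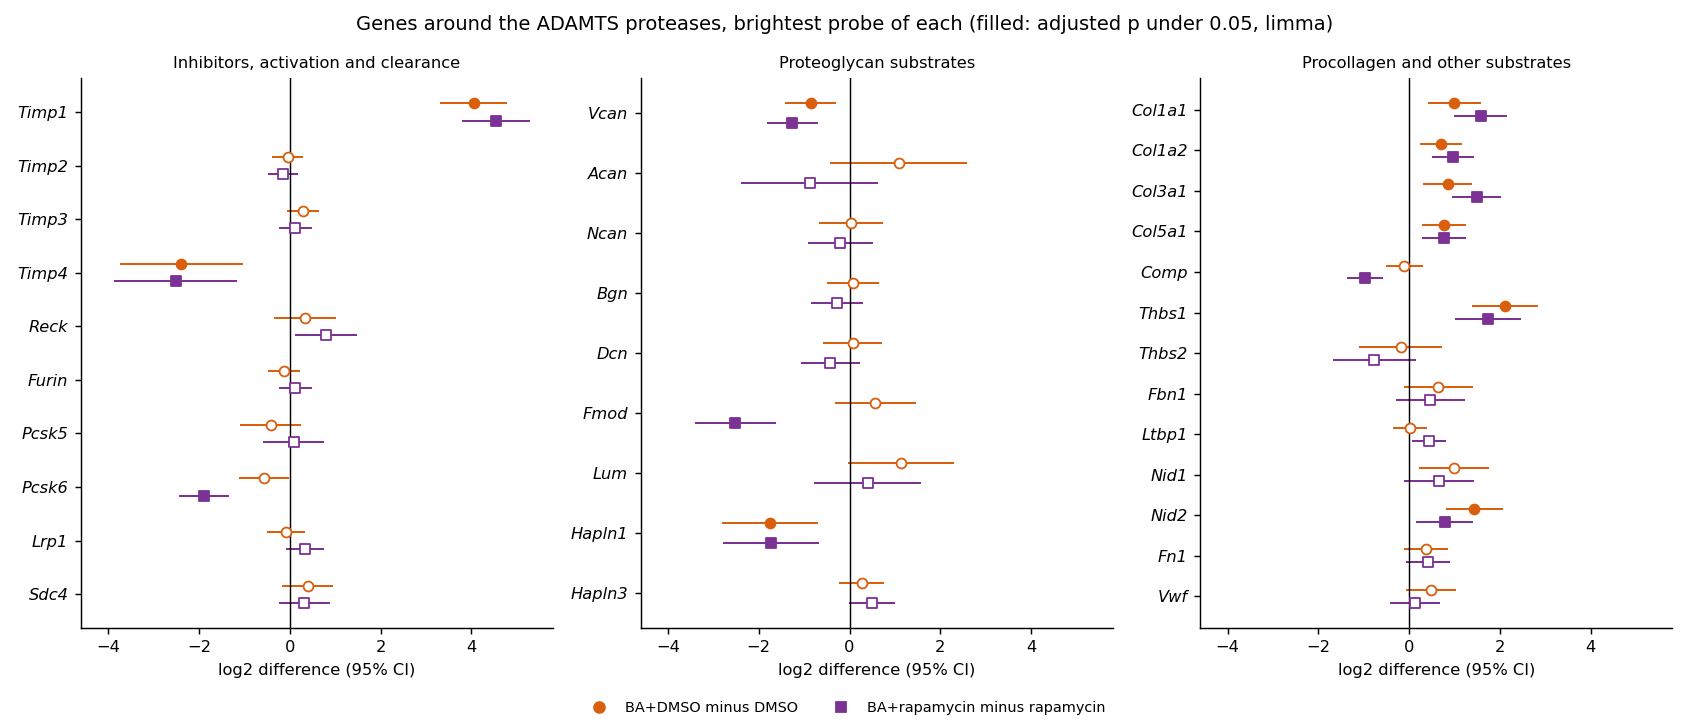
Log2 differences with 95% confidence intervals for inhibitors and processing enzymes, proteoglycan substrates, and procollagens and other substrates in the 2 challenge comparisons (circles, BA+DMSO minus DMSO; squares, BA+rapamycin minus rapamycin; filled, called; brighter probe of each gene). Timp1 lies at 4.05 and 4.55 and Timp4 at -2.39 and -2.51, Timp3 lies at 0.28 and 0.12, and 4 of the procollagen genes are filled to the right of 0 in both comparisons.

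Leaving out single arrays, an alternative chosen after seeing the data, ended many of these calls in mice on DMSO. Timp1, Thbs1, Nid2 and Adamtsl2 were called in BA+DMSO against DMSO without any 1 array of the 2 groups. Timp4, Hapln1, Vcan, Col1a1 and Col3a1 lost their calls without any 1 DMSO array or without BA+DMSO replicate 1, Hapln1 and Vcan also without BA+DMSO replicate 2, and Col3a1 was 0.53 without BA+DMSO replicate 1. Adamts17 in mice on rapamycin lost its call without rapamycin replicate 2 or 3 or BA+rapamycin replicate 1 or 3, and Nid2 there without any 1 array of either group.

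Among 12 tested inducers and regulators of these genes, 3 were called higher and 3 lower with the challenge, with a median of -0.25, where 9.65% of all probes were called higher and 10.8% lower. Il6, the gene of the cytokine interleukin 6, was not well above background on any unchallenged array and was 2.84, -3.83 and -0.12 in the BA+DMSO group, well above background on 2 of the 3. It passed the filter only through the BA+rapamycin group, where it is highest, so its call among the 3 is no support for the list. In the BA+DMSO group it was at least 13-fold higher than in the DMSO group (adjusted p = 0.0135), taking the floor of each DMSO array as the lowest signal among its probes well above background. This bound rests on single arrays, at 4.25-fold without BA+DMSO replicate 1 and 43-fold without replicate 2, and without DMSO replicate 2 the adjusted p was 0.056. Runx1, a transcription factor, rose by 2.01 (SE 0.44, adjusted p = 0.0105). Pgr, which encodes the progesterone receptor, a known regulator of Adamts1 in the ovary, had a difference of -2.64 (SE 0.43, adjusted p = 0.00263) on its brightest probe, a size that rests partly on the 2 of 3 BA+DMSO arrays not well above background. Pgr passed the filter only through the unchallenged groups, where it is highest, so its call too is no support for the list. Its other 2 probes were not well above background on any BA+DMSO array and were at least 1.86-fold lower (adjusted p = 0.0763, not called) and at least 1.19-fold lower (adjusted p = 0.0242). Epas1, a hypoxia-inducible factor, fell by 0.97 (adjusted p = 0.0215) on its brightest probe, while its other 2 probes gave -0.09 and 0.63, neither called. That call was lost without any 1 DMSO array or BA+DMSO replicate 1. Il1a, Tnf and Runx2 did not pass the filter, and Il1b was well above background on 2 of 3 arrays in each challenged group and on none of the others.

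Markers of other cells moved with the challenge too, against the 20.5% of all probes called in mice on DMSO and 41.7% in mice on rapamycin. Of the macrophage markers, 7 of 8 were called higher in mice on DMSO (median 2.07) and 6 of 8 in mice on rapamycin (median 1.45). The log2 of their summed signal ran from 6.80 to 7.14 in the DMSO group, 6.92 to 7.18 in the rapamycin group, 7.57 to 8.94 in the BA+DMSO group and 8.57 to 8.98 in the BA+rapamycin group. These sums are set mostly by the bright Itgam, the 1 marker not called in mice on DMSO (1.12, adjusted p = 0.0906), and BA+DMSO replicate 2 was the highest of its group by the sum and the lowest by the median marker (1.33 against 2.75 and 2.12 above the DMSO mean). All 6 tested markers of proliferating cells were called higher in both comparisons, with sums of 0.50 to 0.71, -0.66 to -0.34, 3.73 to 6.02 and 3.59 to 3.96 in the same order of groups. Of the mesothelial markers, 5 of 6 were called higher in mice on DMSO (median 2.73) and 0 of 6 in mice on rapamycin (median 0.15), with sums of -0.82 to 1.77, 1.31 to 2.02, 2.77 to 3.89 and 0.64 to 3.57. The proliferation markers Top2a, Cdk1 and Ccnb1 and the mesothelial markers Lrrn4 and Upk1b passed the filter only through challenged groups. Any higher calls of theirs in the counts above are therefore no support for the 2 lists. Of the smooth muscle markers, 1 of 8 was called in mice on DMSO, Lmod1, lower by 1.91 (adjusted p = 0.0019), and 3 of 8 were called in mice on rapamycin, 1 higher and 2 lower. In each comparison 6 of 8 had differences below 0, with medians of -0.58 and -0.30. Their sums, set mostly by the bright Acta2 and Tagln, ran from 11.5 to 11.6, 11.4 to 11.6, 11.3 to 12.3 and 11.8 to 12.2. Of the 8 fibroblast markers, none was called in mice on DMSO, and 1 was called higher and 1 lower in mice on rapamycin, with sums between 8.97 and 10.3 over the 12 arrays. In mice on DMSO 3 of 8 endothelial and 3 of 6 T cell markers were called, all higher, and the 1 of 5 neutrophil, 1 of 6 adipocyte and 1 of 5 striated muscle markers called are near the share over all probes. In mice on rapamycin the calls were 1 higher and 2 lower of 8 endothelial, 3 higher of 6 T cell, 1 higher of 5 neutrophil, 1 lower of 6 adipocyte, and 2 higher and 1 lower of 5 striated muscle markers. Of the defining markers, Ngp, Cd8a, Lep, Mylpf and Myh4 were not well above background on any array, and Mpo was so on 1. The smooth muscle genes Acta2, Myh11 and Tagln, named here to check the tissue label, were well above background on all 12 arrays. The part of these cells in the changes of the ADAMTS genes was not tested.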

How the data were processed

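Total RNA of mouse aorta was labelled with Cy3 and hybridised to 1-colour Agilent mouse arrays of 8 x 60K format, with 62976 spots each. The authors deposited the scanner files, which hold processed signal intensity (background-subtracted, not normalized between arrays), raw mean and background intensity and flags of 0 or 1 per spot. Feature Extraction was version 10.7.1.1 per the file headers, while the submitters' processing notes name 9.5.1.1. The deposited value table holds linear intensity that correlates at 0.99994 on each array with a quantile normalization of the processed signals. It was used as an alternative only.

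From the processed intensity, control and outlier spots were left out, log2 was taken, spots of a probe were averaged and each array's 75th percentile was subtracted. The filter kept a probe where a share of 0.5 or more of its spots passed the background flag on each of the 3 arrays of any group. A gene stood by the probe with the highest mean over 12 arrays. Each group's arrays entered 1 limma fit (limma 3.58.1, R 4.3.3; tables and figures in Python 3.11.15 with pandas 2.3.3 and matplotlib 3.10.9), with Benjamini-Hochberg adjustment in each of 5 contrasts. The fit was tested on simulated data with 200 changed probes in the challenge comparison of 27801 probes. It recovered 23 of 100 at a log2 change of 1 and 85 of 100 at 2, with 7 false calls. The simulated noise was independent, with no slide or brightness effect, and a far smaller share was changed than the 20.5% called in the data. These rates are therefore not those of the real comparison. The number of arrays, 3 per group, limits the precision.

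Groups came from the labels, and replicates were numbered in accession order. Members and lists were chosen with earlier results of these data known. All 10 members are named whatever their result. From each other list, at most the 4 genes with the largest called change, and any defining gene not above background, are named, and other genes named outside this rule, such as those that check the tissue label, are marked where they appear. Alternatives were the normalization, filter, probe choice, slide, title date and brightness terms, array weights, the variance model, the study's fold rule and leaving out each array. Probe positions are those of the array files (mm9), and whether a probe lies in an exon or UTR was not analysed here.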

Additional observations from a re-analysis of the deposited data

Results flagged for a closer look

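By its brighter probe, Adamts4 differed with rapamycin in opposite directions with and without the challenge. On the second probe the BA+DMSO and BA+rapamycin groups overlapped. On the brighter probe all 3 rapamycin aortas (0.20, -0.21 and -0.76) lay below all 3 DMSO aortas (0.83 to 1.00). All 3 BA+rapamycin aortas (2.41 to 2.99) lay above all 3 BA+DMSO aortas (1.41 to 2.28) on it. The difference between the differences was 1.99 on the log2 scale (95% confidence interval 1.08 to 2.90), with an unadjusted p of 0.000539 and an adjusted p of 0.494 by limma, so it was not called.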

How the results depend on the processing

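For the brighter probes, no called difference of an ADAMTS gene changed direction over 28 alternatives, with 27 for the interaction and for Adamts12, which could not be fitted where every array had to be above background. In BA+DMSO against DMSO, where 4 genes were called, the count was 1 with no filter on dim probes, 0 with slide as a fixed block, 2 with title date as a random block, 0 with title date as a fixed replicate block, 1 with brightness as a covariate, 0 with the arrays of the 2 groups only, 2 with the mean of a gene's probes and 0 by the study's rule (unadjusted p under 0.01 and a fold over 4 or under 0.25), while it was 6 with array weights and 5 with slide as a random block. Leaving out 1 array gave 0 to 5. With the challenge on rapamycin, where 3 were called, the count was 1 with the fixed replicate block, 1 with brightness and 1 by the study's rule, with 2 to 4 on leaving out 1 array. For rapamycin in challenged mice it was 1 (Adamts9) with array weights and 0 to 2 on leaving out 1 array. For rapamycin alone it was 2 with array weights, Adamts4 at -1.03 (adjusted p = 0.0342) and Adamts9 at -1.12 (adjusted p = 0.0107). For the interaction it was 1 with array weights, Adamts4 at 1.56 (adjusted p = 0.0483), and 0 to 1 on leaving out 1 array. The cause was not tested, except that fits of 2 groups have fewer arrays and the study's rule asks for a larger fold.

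By gene, adjusted p over the alternatives ran from 1.13e-05 to 0.0341 for Adamts4 with the challenge on rapamycin. In mice on DMSO it ran from 0.00491 to 0.389 for Adamts4, 0.00313 to 0.315 for Adamts12, 0.00307 to 0.557 for Adamts15 and 0.00428 to 0.725 for Adamts2, which was called in 7 of 28. Adamts15 on rapamycin was lost in 15 of 28, and without BA+rapamycin replicate 2 it was -0.57. Sample titles pair DMSO and rapamycin arrays only through 1 shared date, and with title date as a fixed replicate block the challenge values were 0.65 for Adamts4, 1.59 for Adamts12, 0.42 for Adamts2 and -1.58 for Adamts15, none called. In that fit BA+DMSO replicates 2 and 3, rapamycin replicate 1 and BA+rapamycin replicate 2, which share a date with no other array or have none, each had a block of their own and so added nothing to the comparison. Dim probes, such as the second probes of Adamts9 and Adamts12, limit what the arrays can show.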
